A study of Mus musculus with 6 samples.

Results

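The genes described here encode the scaffold and adhesion proteins of tight and adherens junctions: Tjp1, Ocln, F11r, Jam2, Jam3, Ctnnb1, Ctnna1, Ctnnd1 and Cgn. They are 9 of the 22086 genes counted in polysomal mRNAs of hippocampal astrocytes. They were listed by name, and each stands for its most counted transcript over the 6 libraries. Polysomes were pulled down by TRAP, through an eGFP tag on the ribosomal protein L10a, from whole hippocampi of 6 weeks-old mice. All mice carried the tg:Aldh1L1-RPL10aGFP transgene, which tags ribosomes under the Aldh1l1 promoter, and the floxed Cx43 allele on both chromosomes (Cx43 fl/fl). The 3 libraries labelled KO (Cx43KO) came from mice that also carried Gfap Cre, and the 3 libraries of Littermates (Cx43FL) from mice without it. The deletion is thus limited to cells in which the Gfap promoter has driven Cre. How many mice went into each extraction is not given in the sources used here, so that p-values measure the spread between libraries.

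Tight junctions seal the space between neighbouring cells. Their transmembrane proteins, among them occludin and the junctional adhesion molecules (JAMs), are held on the cytoplasmic side by scaffolds such as ZO-1, which also binds connexin 43, and cingulin. In adherens junctions, classical cadherins are tied to actin by β-catenin and α-catenin, and p120-catenin keeps cadherins at the membrane. β-catenin has a separate role in Wnt signaling, where the pool that escapes degradation enters the nucleus and acts with TCF/LEF factors. Astrocytes build adherens junctions among themselves, while the tight junctions of the brain are found mainly in vessel endothelium and in the epithelium of the choroid plexus.

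Polysomal mRNAs of the catenins, Tjp1 and Jam2 were well counted in every library, Jam3 was less so, and Ocln, F11r and Cgn were near the floor of counting in some libraries. None of the 9 genes differed between genotypes past the threshold, which was an adjusted p-value below 0.05 (edgeR's quasi-likelihood test, Benjamini-Hochberg adjustment) with a mean above 50 normalized counts in the higher genotype. The members called were 0 of 9, and among all 13545 tested genes 0.00738% were called. Cgn could not be called at any p-value by this threshold. Its means, 27.7 normalized counts in Cx43FL and 7.39 in Cx43KO, were under the minimum of 50. At an unadjusted p-value below 0.05 the count was also 0 of 9 in this edgeR fit with genotype alone, beside 8.34% of all tested genes. DESeq2 called 0 of 9 members with its normal prior and 0 without it, beside 0.951% and 1.22% of the genes it tested. The adjusted p-values of the members lay between 0.5995 and 0.991 in edgeR's test. Ocln alone had every Cx43KO library above every Cx43FL library, and no member had every Cx43KO library below. Of all tested genes, 8.08% were separated upward and 7.45% downward. Of the 9 members, 6 had a positive log2 fold change, beside 54.4% of all tested genes, and their median was 0.34 against 0.071 over all tested genes.

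Values are given as CPM, which are counts per M of the counts on tested genes with TMM scaling, and as raw counts where these were low. Within each genotype they are listed in the order of replicates 1, 2 and 3. A count of 3 is worth between 0.0926 and 0.199 CPM, depending on the library. It marks counting error only, because reads amplified from the same molecule are not independent. The total counts on genes were 14787303 to 15391214 in Cx43FL and 16056347 to 34733473 in Cx43KO. Gja1, the targeted gene that encodes Cx43, had 92.0, 91.7 and 82.3 CPM in the Cx43FL libraries, against 87.2, 98.4 and 95.1 CPM in the Cx43KO libraries. The libraries labelled Cx43KO were therefore not lower in Gja1 counts. The count is a total over both exons of the transcript and hides which part of the gene was read, so the names Cx43FL and Cx43KO stand here for the labels. Cx43KO replicate 1 stood apart on the first principal component (41.0% of the variance), at 123.4 against -50.7 to -0.42 in the other libraries. Its summed CPM over 15 astrocyte markers was 17882.5, against 37714 and 53894 in Cx43KO replicates 2 and 3 and 37949 to 41571 in Cx43FL. The labels name no batch. By the paper's methods the libraries were pooled by 3 over 2 flow cell lanes, and which of them shared a lane is not given. A difference in handling, if there was any, and the genotype therefore cannot be told apart. In material from whole tissue, fewer cells of a type and less RNA per cell cannot be told apart either.

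Tjp1 encodes ZO-1, the scaffold under tight junctions that also binds the tail of connexin 43. It lies on chromosome 7 of GRCm38, from 65296165 to 65527781 on the minus strand. Its levels were 246.5, 300.0 and 267.9 CPM in the Cx43FL libraries, against 143.8, 197.2 and 284.4 CPM in the Cx43KO libraries. Cx43KO replicate 1 was the lowest of all libraries, while Cx43KO replicate 3 lay within the range of Cx43FL, so the genotypes overlapped. The log2 fold change was -0.38 (standard error, SE, 0.31, 95% interval -1.06 to 0.30, adjusted p = 0.718 in edgeR's quasi-likelihood test, Benjamini-Hochberg method). The exact 2-sided permutation test gave p = 0.3, the smallest p that 3 against 3 libraries allow being 0.1. Leaving out Cx43KO replicate 1 brought the log2 fold change to -0.18, and leaving out Cx43KO replicate 3 to -0.67.

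Cgn encodes cingulin, a cytoplasmic protein that binds ZO-1 in epithelial tight junctions (chromosome 3, 94760069 to 94786492, minus strand). Its counts were 23, 5 and 36 in the Cx43FL libraries and only 17, 0 and 2 in the Cx43KO libraries. Cx43KO replicates 2 and 3 were under 3 counts and Cx43FL replicate 2 was just above, so Cgn was near the floor in 3 of 6 libraries. In CPM the means were 1.40 ± 1.01 for Cx43FL and 0.372 ± 0.592 for Cx43KO (SD, n = 3 libraries each), and the genotypes overlapped. A log2 fold change of -1.94 was fitted, with an SE of 1.69 (95% interval -5.65 to 1.77, adjusted p = 0.741 in edgeR's quasi-likelihood test), and its value depends on the prior count. Without Cx43KO replicate 1 it was -5.18.

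Ocln encodes occludin, which spans the membrane of tight junctions with its MARVEL domain (chromosome 13, 100496507 to 100552718, minus strand). Its counts were 19, 6 and 147 in the Cx43FL libraries, which are 1.25, 0.398 and 9.57 CPM. The Cx43KO libraries had 234, 336 and 329 counts, or 14.5, 13.5 and 10.2 CPM. The 3 Cx43KO libraries were alike and above all Cx43FL libraries, but Cx43FL replicate 3 was close to Cx43KO replicate 3, and Cx43FL replicates 1 and 2 were far lower. Ocln had a log2 fold change of 1.76 with an SE of 1.03 (95% interval -0.50 to 4.03, adjusted p = 0.633 in edgeR's quasi-likelihood test, Benjamini-Hochberg method). The exact 2-sided permutation test gave 0.1, the smallest p possible here. Without Cx43FL replicate 3 the log2 fold change was 3.94, and without Cx43FL replicate 2 it was 1.22.

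The order of the libraries in Ocln was nearly that of the summed markers of choroid plexus epithelium and ependyma, cells that are not astrocytes. Of a list of 14 such markers, 14 were tested and 0 were called, and none was at 0 in all libraries. Every Cx43KO library was above every Cx43FL library in 9 of the 14, beside 8.08% of all tested genes. Not every marker followed the sum. Ccdc153 was highest in Cx43FL replicate 2 (12.2 CPM). Rsph1, with a log2 fold change of 0.059, had Cx43KO replicate 1 (31.0 CPM) below Cx43FL replicates 1 and 3 (63.2 and 61.0 CPM). Ttr, the transthyretin mRNA that choroid plexus makes in large amounts, stood at 9593, 450.1 and 14870 CPM in the Cx43FL libraries, against 32150, 25640 and 21440 CPM in the Cx43KO libraries. The other 13 markers summed to 501, 47.1 and 655.7 CPM in the Cx43FL libraries, against 960.4, 892.2 and 1079 CPM in the Cx43KO libraries. Cx43FL replicate 2 was thus the lowest library in Ocln, in Ttr and in this sum, and the Cx43KO libraries were the highest in each. The part of these cells in the Ocln counts was not tested. Markers of endothelium, the other brain tissue with tight junctions, summed to 64.6, 73.2 and 80.6 CPM in the Cx43FL libraries, against 122.7, 66.4 and 97.9 CPM in the Cx43KO libraries, with 11 of 15 tested, 0 called and none of the 15 at 0 in all libraries. The glucose transporter gene Slc2a1 made up a large part of that sum, and without it the other 10 markers summed to 19.1, 11.3 and 31.2 CPM in the Cx43FL libraries, against 70.3, 31.4 and 41.3 CPM in the Cx43KO libraries. By these 10 markers every Cx43KO library was above every Cx43FL library, Cx43KO replicate 2 only just, and Cx43FL replicate 2 was the lowest, as for Ocln. The log2 fold changes of the 11 tested markers were above 0 for 9 of them (median 1.08). Of the 11, 2 had every Cx43KO library above (Cd34 and Slco1a4) and 1 every Cx43KO library below (Ly6c1), beside 8.08% and 7.45% of all tested genes. The endothelial genes named and the sum without Slc2a1 were chosen after the values were seen, and the part of endothelium in the Ocln counts was not tested.

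**Figure D1:**
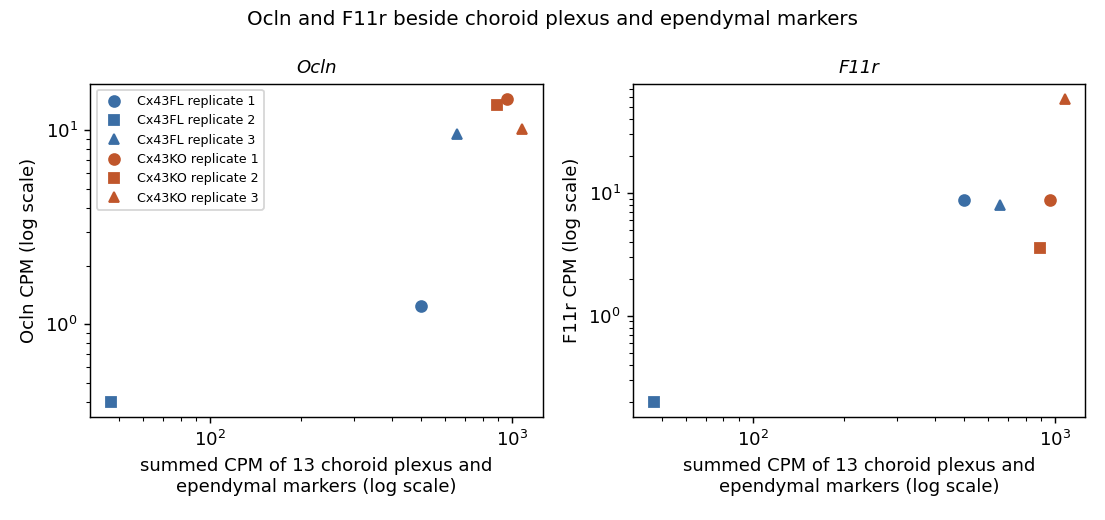
CPM of Ocln (left) and F11r (right) in the 6 libraries against the summed CPM of 13 choroid plexus and ependymal markers, Ttr left out, all on log axes. Cx43FL replicate 2 sits lowest on every axis (47.1 summed CPM), and the 3 libraries labelled Cx43KO lie farthest to the right (892.2 to 1079).

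The JAMs are immunoglobulin-like adhesion molecules that end in a short motif for binding PDZ domains, such as those of ZO-1 and PAR3. F11r encodes JAM-A, found in epithelium, endothelium and blood cells, Jam2 encodes JAM-B and Jam3 encodes JAM-C. The last 30 coding bases of the counted transcripts are shown because that motif is their shared feature, with the last 3 codons and the stop codon in capitals. They were read from the GENCODE M21 transcripts on GRCm38, in the order chr1:171463065-171463094 on the plus strand, chr16:84822790-84822819 on the plus strand and chr9:27098366-27098395 on the minus strand.
F11r: ttcaaacagacctcgtcgTTCCTGGTGTGA
Jam2: ttcaagcacacaaaatccTTTATAATTTAA
Jam3: ttcagacacaaatcgtccTTTGTTATCTGA
Over the whole coding sequences, of 903, 897 and 933 bases, aligned bases were identical at 57.5% between F11r and Jam2, 54.9% between F11r and Jam3 and 55.0% between Jam2 and Jam3.

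F11r (chromosome 1, 171437535 to 171464603, plus strand) had counts of 132, 3 and 123 in the Cx43FL libraries and of 141, 88 and 1887 in the Cx43KO libraries. These are 8.69, 0.199 and 8.01 CPM for Cx43FL, against 8.75, 3.54 and 58.3 CPM for Cx43KO. Cx43KO replicate 3 stood alone, with the other 5 libraries at 8.75 CPM or below, and the genotypes overlapped. For F11r the log2 fold change of 2.06 had an SE of 1.196 (95% interval -0.57 to 4.70, adjusted p = 0.633 in edgeR's quasi-likelihood test). Without Cx43KO replicate 3 it was 0.12. The exact permutation p was 0.4. Cx43FL replicate 2 was the lowest in F11r as in Ocln, but Cx43KO replicate 1 was level with Cx43FL replicate 1, and Cx43KO replicate 2 was below it. Markers of microglia, which are related to blood cells, summed to 36.4 to 66.9 CPM in Cx43FL and were highest in Cx43KO replicate 3 (191.8, beside 164.6 and 111.4), with 13 of 15 tested and 0 called, and their part in the F11r counts was not tested.

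Jam2 was the best counted JAM (chromosome 16, 84774123 to 84825928, plus strand). It stood at 122.4, 145.2 and 126.6 CPM in the Cx43FL libraries, against 194.7, 115.8 and 260.6 CPM in the Cx43KO libraries. Cx43KO replicates 1 and 3 were above every Cx43FL library and Cx43KO replicate 2 was below, so the genotypes overlapped. Jam2 had a log2 fold change of 0.54 (SE 0.33, 95% interval -0.19 to 1.26, adjusted p = 0.645 in edgeR's quasi-likelihood test), with an exact permutation p of 0.4. Without Cx43KO replicate 3 it was 0.24.

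Jam3 (chromosome 9, 27097384 to 27155421, minus strand) stood at 12.4, 56.8 and 23.5 CPM in the Cx43FL libraries, against 55.3, 17.3 and 17.2 CPM in the Cx43KO libraries. Each genotype held a single high library, Cx43FL replicate 2 and Cx43KO replicate 1. For Jam3 the log2 fold change of -0.048 (SE 0.64, 95% interval -1.47 to 1.37, adjusted p = 0.991 in edgeR's quasi-likelihood test) turned to 0.72 without Cx43FL replicate 2 and to -0.85 without Cx43KO replicate 1. The interval leaves room for a change of over 1 on the log2 scale in either direction.

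Ctnnb1 encodes β-catenin, which links cadherins to α-catenin and acts in Wnt signaling (chromosome 9, 120929216 to 120960507, plus strand). It was the most counted member in every library, with counts of 6403, 5617 and 5994 in the Cx43FL libraries and of 10627, 11659 and 12150 in the Cx43KO libraries. In CPM these were 421.7, 372.6 and 390.4 for Cx43FL, against 659.7, 468.6 and 375.1 for Cx43KO. Scaled for depth, Cx43KO replicate 3 was within the range of Cx43FL, and the genotypes overlapped. Ctnnb1 had a log2 fold change of 0.34 (SE 0.29, 95% interval -0.29 to 0.98, adjusted p = 0.732 in edgeR's quasi-likelihood test), with an exact permutation p of 0.3. Without Cx43KO replicate 1, the library low in astrocyte markers, it was 0.092. Markers of neurons, all 15 of them tested and 0 called, summed to 8038 CPM in that library and to 2194 to 4589 CPM in the others. Markers of oligodendrocytes, 13 of 13 tested and 0 called, summed to 2977 CPM in Cx43KO replicate 1 and to 649 to 1178 CPM in the others. The summed markers of mural cells, of endothelium, and of choroid plexus and ependyma with Ttr were also highest in Cx43KO replicate 1. The part of any of these cells in the Ctnnb1 counts was not tested.

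Ctnna1 encodes αE-catenin, which connects the cadherin complex to actin (chromosome 18, 35118859 to 35254779, plus strand). It stood at 191.7, 177.3 and 183.0 CPM in the Cx43FL libraries, against 141.9, 202.7 and 247.9 CPM in the Cx43KO libraries. The Cx43KO libraries lay on both sides of the narrow range of Cx43FL. A log2 fold change of 0.10 was fitted (SE 0.29, 95% interval -0.54 to 0.74, adjusted p = 0.930 in edgeR's quasi-likelihood test), and it was -0.095 without Cx43KO replicate 3. The exact permutation p was 0.7.

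Ctnnd1 encodes p120-catenin, which binds the juxtamembrane part of cadherins and slows their removal from the surface (chromosome 2, 84600071 to 84650765, minus strand). It stood at 116.5, 67.9 and 146.0 CPM in the Cx43FL libraries, against 140.5, 150.1 and 296.4 CPM in the Cx43KO libraries. Cx43KO replicate 1 was below Cx43FL replicate 3, and Cx43KO replicate 3 was far above the others. Ctnnd1 had the lowest adjusted p of the members, with a log2 fold change of 0.83 (SE 0.39, 95% interval -0.027 to 1.69, adjusted p = 0.5995 in edgeR's quasi-likelihood test, Benjamini-Hochberg method). The exact permutation p was 0.2. Without Cx43KO replicate 3 the log2 fold change was 0.40.

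**Figure D2:**
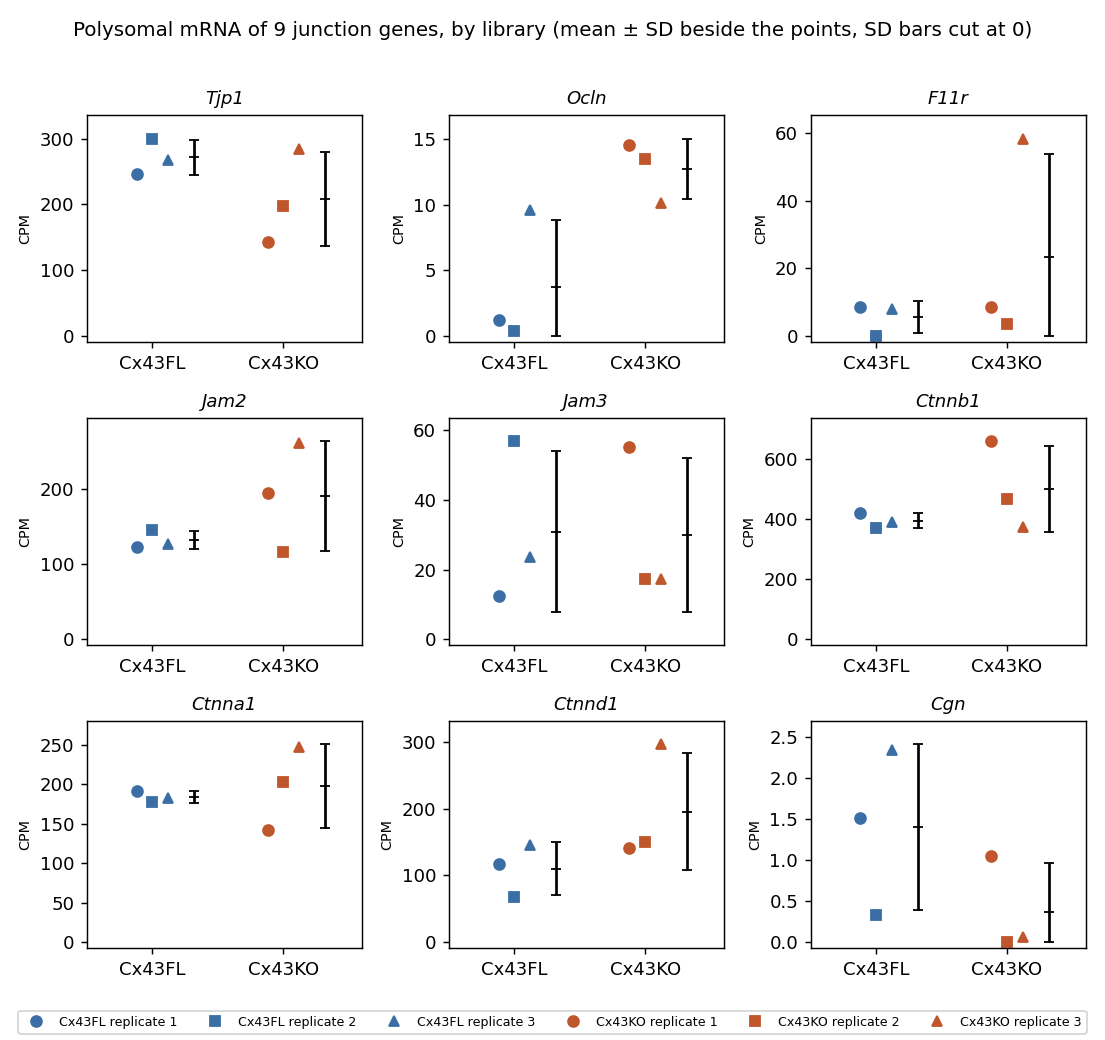
CPM of the 9 genes in each library (points, linear axes), with the mean and SD of each genotype beside them (n = 3 libraries). Ocln is the only gene whose points in the libraries labelled Cx43KO (10.2 to 14.5) all lie above its Cx43FL points (0.398 to 9.57), and F11r has a single high point (58.3, Cx43KO replicate 3).

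**Figure D3:**
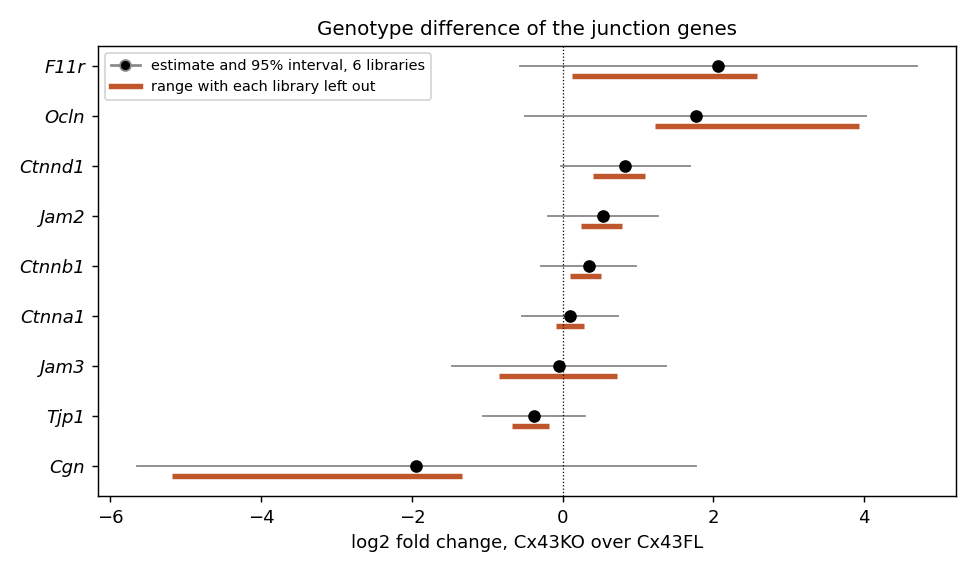
log2 fold change of Cx43KO over Cx43FL for the 9 genes, with the 95% interval of the fit to 6 libraries (thin line) and the range when each library was left out in turn (thick line). Every interval includes 0, and the left-out ranges of Jam3 (-0.85 to 0.72) and Ctnna1 (-0.095 to 0.29) include it too.

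The spread between libraries differed widely among the members. Between the Cx43FL libraries the coefficient of variation was 3.95% for Ctnna1, 6.30% for Ctnnb1, 9.24% for Jam2 and 9.90% for Tjp1. Between the Cx43KO libraries the same genes varied by 26.9%, 28.9%, 38.1% and 34.0%. The coefficient of variation was larger in Cx43KO for 7 of 9 members, beside 68.7% of all tested genes. Ocln went the other way, with 135.5% in Cx43FL and 17.9% in Cx43KO, and Jam3 varied about equally, by 74.6% and 73.4%. Within Cx43FL the highest library exceeded the lowest by 43.7-fold in F11r, where the lowest library had 3 counts, and by 24.1-fold in Ocln. In Tjp1, Jam2, Ctnnb1 and Ctnna1 it did so by no more than 1.22-fold.

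Levels of different genes were compared per kb of the counted transcript. This takes coverage as even along each transcript. Counts that Ctnnb1 may share with Ulk4, described below, were left in. Ctnnb1 was the highest of the members, with 109 ± 6.87 CPM per kb in Cx43FL, against 138.3 ± 40.04 in Cx43KO (SD, n = 3 for both). Ctnna1 followed with 49.3 ± 1.95 in Cx43FL and 52.9 ± 14.3 in Cx43KO. Tjp1 had 38.5 ± 3.81 and 29.6 ± 10.1 CPM per kb, and Jam2 had 30.1 ± 2.78 and 43.6 ± 16.6. These were the members at or above the level of the targeted gene Gja1 in Cx43FL, which had 28.9 ± 1.78 CPM per kb there and 30.5 ± 1.87 in Cx43KO. Ctnnd1 had 18.0 ± 6.45 CPM per kb in Cx43FL and 31.98 ± 14.3 in Cx43KO, and Jam3 had 15.9 ± 11.9 and 15.4 ± 11.3. F11r, with 2.24 ± 1.87 and 9.34 ± 11.99 CPM per kb, and Ocln, with 0.923 ± 1.25 and 3.14 ± 0.564, were far lower. Cgn was last with 0.282 ± 0.204 and 0.0750 ± 0.119 CPM per kb.

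In Cx43FL, the ranges of Ctnnb1, Ctnna1, Tjp1, Jam2 and Ctnnd1 did not overlap, while Jam3 overlapped Jam2 and Ctnnd1, and Ocln overlapped F11r and Cgn. In Cx43KO, the ranges of Ctnna1, Jam2, Tjp1, Ctnnd1, Jam3, F11r and Ocln overlapped from each to the next, and those of Ctnnb1 and Cgn stood clear at the top and the bottom. Taking the length of all exons of a gene in place of the counted transcript moved 5 of 18 levels by over 1 SD. It put Tjp1 (34.8) above Ctnna1 (28.6) in Cx43FL and Jam2 (31.5) above Ctnna1 (30.7) in Cx43KO, and left Ctnnb1 first. With that length Gja1 had 8.64 CPM per kb in Cx43FL, and Ctnnd1 (15.0) and Jam3 (9.66) were then above it as well.

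**Figure D4:**
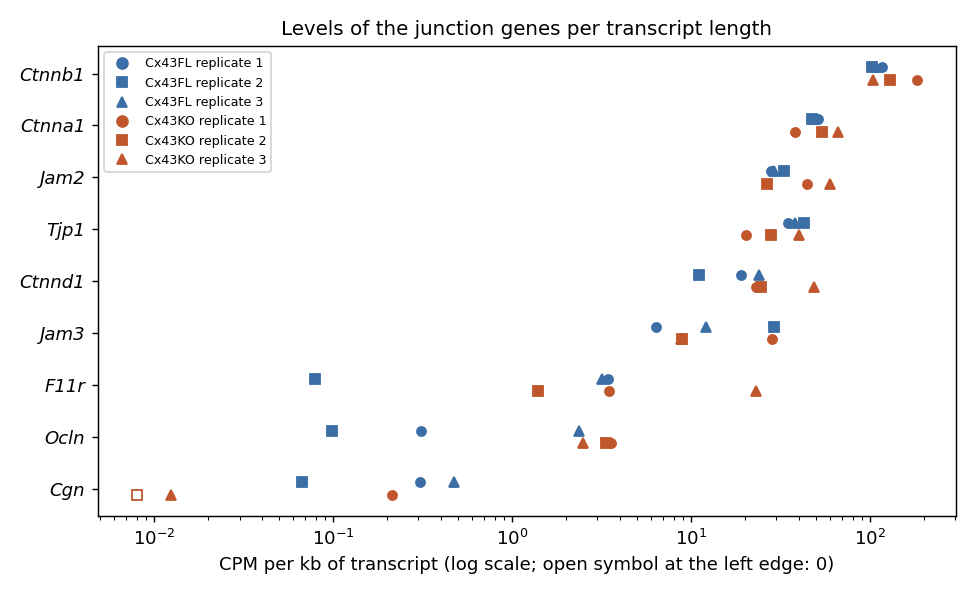
CPM per kb of the counted transcript in each library, on a log axis, genes ordered by their mean over the 6 libraries. Ctnnb1 lies at 102.8 or more in every library, Ctnna1, Jam2 and Tjp1 between 20.4 and 66.4, and Cgn at 0.472 or less, the open symbol standing for the 0 in Cx43KO replicate 2.

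Ratios within a library do not depend on its scaling. Per kb, Ctnnb1 over Ctnna1 was 2.27, 2.17 and 2.20 in the Cx43FL libraries, against 4.79, 2.38 and 1.56 in the Cx43KO libraries. These catenins of the cadherin complex thus stood in nearly the same ratio in the 3 Cx43FL libraries, and the Cx43KO libraries lay on both sides of it. Ctnnb1 over Tjp1 was 3.33, 2.42 and 2.84 in the Cx43FL libraries, against 8.92, 4.62 and 2.57 in the Cx43KO libraries, with Cx43KO replicate 1 highest again. Jam2 over Jam3 was 4.37, 1.14 and 2.39 in the Cx43FL libraries, against 1.57, 2.97 and 6.75 in the Cx43KO libraries, with Jam2 the higher of the pair in every library. Tjp1 over Ocln ran from 16.1 to 433 in Cx43FL and from 5.69 to 16.1 in Cx43KO.

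The counts are per transcript, and reads shared by several transcripts of a gene were counted on each of them. The counts of the top transcript of Ctnnb1 were identical in every library to those of another of its 14 transcripts, and the same held for Cgn. Of 30 Ctnnd1 transcripts counted, 24 were within 0.5% of the highest, and the sum over all of them was 25.3 times the highest. A difference in count between a transcript and a shorter one nested in it is therefore a count of the reads on the bases that the shorter one lacks. Where the shorter one also has bases of its own, the difference is lessened by any reads on those. The bases are those of the GENCODE M21 models on GRCm38, whose ends may differ from the older Ensembl release on which the reads were counted.

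The counted Tjp1 transcript (ENSMUST00000102592) contains an exon of 240 bases that a shorter one (ENSMUST00000032729) skips, the exon that encodes the alpha domain of ZO-1. It is shown because it is a coding difference between the isoforms of the scaffold, at chr7:65314093-65314332 on the minus strand of GRCm38, with 80 codons in frame.
Tjp1 alpha exon: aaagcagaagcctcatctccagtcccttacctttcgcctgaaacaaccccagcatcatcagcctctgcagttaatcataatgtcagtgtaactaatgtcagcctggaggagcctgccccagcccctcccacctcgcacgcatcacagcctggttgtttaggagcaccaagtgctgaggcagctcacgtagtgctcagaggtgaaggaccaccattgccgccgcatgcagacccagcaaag
The count on the longer exceeded that on the shorter by 1031, 514 and 707 in the Cx43FL libraries, against 375, 564 and 1374 in the Cx43KO libraries. The shorter has 60 bases of its own, and any reads on them lessen these differences. The count on the shorter was 72.5%, 88.6% and 82.8% of that on the longer in the Cx43FL libraries, against 83.8%, 88.5% and 85.1% in the Cx43KO libraries, and the genotypes overlapped. The 1007 bases that only the longer transcript holds also include its ends, so the reads on the exon alone could not be separated from those on the ends. In a fit to every transcript, the shorter had a log2 fold change of -0.32 (SE 0.35) and the longer had -0.38 (SE 0.33).

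In Ocln, few reads lay on a 5′ coding exon alone. A transcript of Ocln (ENSMUST00000159459) lacks 889 bases of another (ENSMUST00000022140), among them the coding exon of 673 bases at chr13:100539261-100539933 and an exon of 117 bases. The transcript with these exons held 1, 0 and 116 counts in the Cx43FL libraries and 129, 266 and 304 in the Cx43KO libraries, and exceeded the one without them by 0, 0 and 13 counts and by 0, 12 and 1 counts. Of 816 counts, 26 thus touched the bases in question, or 3.19%. ENSMUST00000022140 in turn lacks the distal part of the last exon of the counted transcript (ENSMUST00000069756). Its count was 5.26%, 0% and 78.9% of that on the counted transcript in the Cx43FL libraries, against 55.1%, 79.2% and 92.4% in the Cx43KO libraries. In Cx43FL replicates 1 and 2, where Ocln was lowest, nearly all of the 19 and 6 counts were thus on bases that ENSMUST00000022140 lacks. When it stood for the gene, every Cx43KO library was still above every Cx43FL library, with a log2 fold change of 1.93 (SE 1.44) in the fit to every transcript.

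For Jam2 and Ctnnd1, counts were also given on short transcripts that cover part of the coding region and little of the last exon. The short Jam2 transcript (ENSMUST00000138054) shares 657 bases with the counted one, 15.0% of its length. Its count was 16.3%, 21.8% and 18.3% of that on the counted transcript in the Cx43FL libraries, against 4.21%, 18.6% and 11.5% in the Cx43KO libraries. Cx43KO replicates 1 and 3, the libraries with the highest Jam2, had the lowest shares. In the fit to every transcript, the short transcript had a log2 fold change of -0.33 (SE 0.55), beside 0.54 for the counted one. The fitted signs thus differed, but the estimate for the short transcript was smaller than its SE, and neither value was past the threshold. A further short transcript, ENSMUST00000098407, had a log2 fold change of 0.00016 (SE 0.64).

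The short Ctnnd1 transcript ENSMUST00000150940 shares 810 bases with the counted one, 13.2% of its length. Its shares were 22.0%, 27.8% and 21.0% in the Cx43FL libraries, against 16.1%, 18.7% and 6.85% in the Cx43KO libraries, lower in every Cx43KO library. Its log2 fold change was -0.087 (SE 0.43), beside 0.85 (SE 0.40) for the counted transcript. A second short transcript, ENSMUST00000141151, covers 13.4% of the length of the counted one. Its shares were 25.5%, 29.2% and 25.1% in the Cx43FL libraries, against 17.1%, 25.3% and 8.75% in the Cx43KO libraries, and the genotypes overlapped. Cx43KO replicate 3, the library highest in Ctnnd1, was the lowest of all libraries in both shares.

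A Ctnnb1 transcript (ENSMUST00000163844) that covers 61.3% of the length of the counted one held 16.8%, 9.58% and 16.4% of its counts in the Cx43FL libraries, against 12.4%, 12.8% and 13.3% in the Cx43KO libraries. By these models, the reads on a further transcript (ENSMUST00000178812) and not on this one, over 480 bases of which 263 belong to the last exon, made up 83.2% to 90.4% of the Ctnnb1 count in each library. By these models the Ctnnb1 count rested in both genotypes mostly on 13.2% of the length of the transcript. That share depends on the transcript ends, which may differ from those used in counting, so it is not established. The last exon of the counted Ctnnb1 transcript overlaps a transcript of the kinase gene Ulk4 on the opposite strand by 240 bases, and the kit did not mark strand. That Ulk4 transcript had counts of 2489, 2453 and 2220 in the Cx43FL libraries and of 3624, 3641 and 4316 in the Cx43KO libraries. If all of them had been shared they would make up 31.2% to 43.7% of the Ctnnb1 count, and taking them off gave a log2 fold change of 0.49 in place of 0.34. By the same models, however, only 8 counts in all libraries lay on the counted transcript and not on ENSMUST00000178812, which ends before the overlap. This too depends on where ENSMUST00000178812 ended in the release used for counting.

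**Figure D5:**
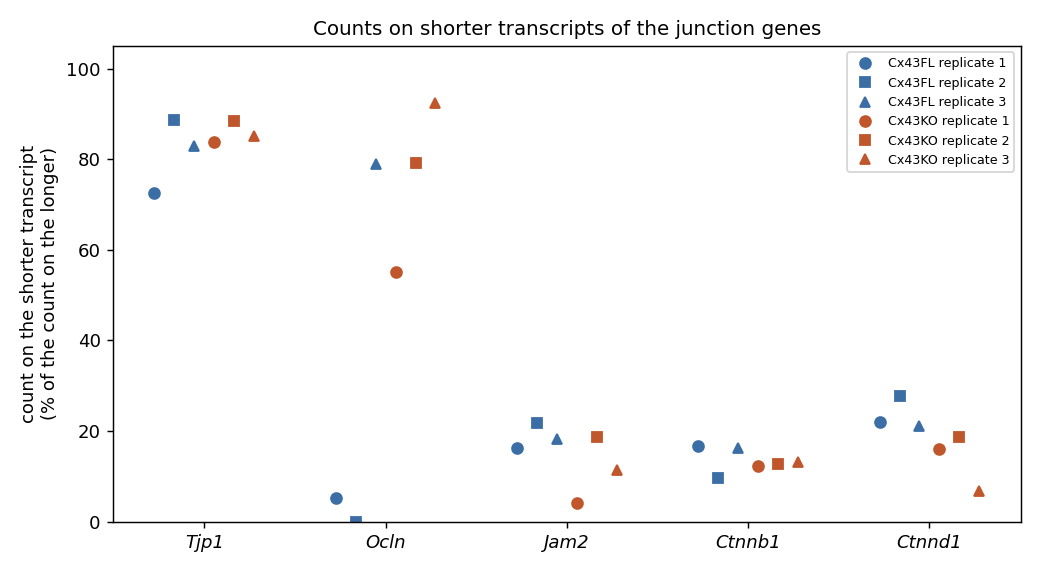
Count on a shorter transcript as a percentage of the count on the longer transcript of the same gene, for the Tjp1, Ocln, Jam2, Ctnnb1 and first Ctnnd1 pairs described here, in each library. Ocln ranges from 0% to 92.4%, and Tjp1 stays between 72.5% and 88.6%. The Ctnnd1 pair drawn is lower in all libraries labelled Cx43KO (6.85% to 18.7%) than in the Cx43FL libraries (21.0% to 27.8%). The second Ctnnd1 pair, not drawn, overlaps between genotypes (8.75% to 25.3% in Cx43KO, 25.1% to 29.2% in Cx43FL).

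The other genes of these junctions were examined in 3 lists that leave out the members. Of 28 other tight junction genes 27 were tested, with 0 called, and of 24 other adherens junction genes 22 were tested, with 0 called. At an unadjusted p-value below 0.05, the tight junction list held 2 genes higher and 1 lower in Cx43KO, and the adherens junction list 3 higher and 0 lower, beside 5.66% higher and 2.67% lower among all tested genes. The median log2 fold change was 0.16 in the tight junction list and 0.33 in the adherens junction list, against 0.071 over all tested genes. Marveld2, Cdh1 and Cdh5 were not tested for low counts. Cdh2, which encodes N-cadherin, a binding partner of these catenins, stood at 25.0, 18.6 and 30.6 CPM in the Cx43FL libraries, against 35.1, 24.9 and 77.3 CPM in the Cx43KO libraries. It overlapped between genotypes, with a log2 fold change of 0.89 (SE 0.49, adjusted p = 0.615 in edgeR's quasi-likelihood test), and was named after its values were seen.

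Among the tight junction genes, Pard6b, a polarity gene of the PAR complex, had the largest positive log2 fold change, 2.78 (SE 1.01, adjusted p = 0.5396 in edgeR's quasi-likelihood test). Its counts were 23, 59 and 42 in the Cx43FL libraries and 737, 199 and 81 in the Cx43KO libraries, and in CPM Cx43KO replicate 3 (2.501) was below Cx43FL replicates 2 and 3 (3.91 and 2.74). Pard3, which encodes the PAR3 scaffold that binds the JAMs, had the largest negative value, -1.94 (SE 0.64, adjusted p = 0.5396 in the same test). Its counts were 524, 1254 and 528 in the Cx43FL libraries and 60, 547 and 450 in the Cx43KO libraries, and every Cx43KO library was below every Cx43FL library in CPM.

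The other tight junction genes named here were chosen after their values were seen. Magi1, like ZO-1 a scaffold with PDZ domains, was the other gene with an unadjusted p-value below 0.05 (log2 fold change 1.01). Pard6a and Amotl2 also had every Cx43KO library below, and Cgnl1 and Igsf5 every Cx43KO library above. With Pard3, 3 of the 27 tested genes of this list were separated downward and 2 upward. Among all tested genes 7.45% were separated downward and 8.08% upward. Cgnl1 encodes paracingulin, the relative of Cgn, and its counts were 158, 5 and 187 in the Cx43FL libraries and 469, 595 and 1078 in the Cx43KO libraries. Its lowest library was Cx43FL replicate 2, as for Ocln, F11r and the choroid plexus markers.

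In the adherens junction list, Nectin2, an immunoglobulin-like adhesion gene, had the largest positive log2 fold change, 2.39 (SE 1.78), with counts of 31, 1 and 3 in the Cx43FL libraries and of 0, 55 and 320 in the Cx43KO libraries. Ctnna3, the αT-catenin gene, had the largest negative value, -1.96 (SE 1.92), with counts of 18, 2 and 52 in the Cx43FL libraries and of 20, 0 and 0 in the Cx43KO libraries. Each of these rests on libraries with few counts. Lmo7, Camsap3 and Actn1 had an unadjusted p-value below 0.05, with log2 fold changes of 2.27, 2.22 and 1.90. Camsap3, which anchors microtubule minus ends, and Actn1, an actin crosslinker, had every Cx43KO library above every Cx43FL library. They were 2 of the 22 tested genes of this list, with 0 separated downward. Among all tested genes 8.08% were separated upward and 7.45% downward. Lmo7, Camsap3 and Actn1 were named after their values were seen.

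The degradation and transcription partners of β-catenin, 21 genes of which 21 were tested, held 0 called genes, 0 with an unadjusted p-value below 0.05 in edgeR's test and 0 whose genotypes did not overlap, beside 15.5% of all tested genes for the last. Their median log2 fold change was 0.19. Tcf7, a TCF/LEF factor, had the largest positive value, 1.41 (SE 0.87), with counts of 62, 53 and 23 in the Cx43FL libraries and of 116, 99 and 419 in the Cx43KO libraries. Axin2, a scaffold of the degradation complex and a known target of Wnt signaling, had the largest negative value, -0.65 (SE 0.56), with counts of 810, 405 and 340 in the Cx43FL libraries and of 188, 399 and 1215 in the Cx43KO libraries. The Axin2 values of the genotypes overlapped widely.

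The gene most alike in pattern to each member was the 1 with the smallest root mean square difference in centred log2(CPM + 0.5) over the 6 libraries, among 9788 genes with a mean of at least 10 CPM. For the well counted members this was Rcbtb2 for Tjp1 (0.042), Fam19a5 for Ctnnb1 (0.052), Mapre2 for Ctnna1 (0.062), Zfp580 for Jam2 (0.068) and Sod3 for Ctnnd1 (0.13). The match was looser for 4931428F04Rik with Jam3 (0.21), Pde10a with Cgn (0.37), Lpcat4 with Ocln (0.38) and Slc6a20a with F11r (0.61). Lpcat4 stood at 3.29, 1.39 and 20.3 CPM in the Cx43FL libraries, against 19.6, 14.8 and 14.5 CPM in the Cx43KO libraries, and unlike Ocln it overlapped between genotypes. Slc6a20a stood at 10.9, 1.06 and 5.86 CPM in the Cx43FL libraries, against 8.505, 4.90 and 34.8 CPM in the Cx43KO libraries, with the same highest and lowest libraries as F11r.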

How the data were processed

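Polysomal mRNAs of astrocytes were amplified with the Ovation RNA-Seq kit and sequenced in 3 libraries per genotype. The authors used Eoulsan to filter the reads, STAR to align them to mm10 and HTSeq-count (version 0.5.3 in the submitters' processing notes) to count them after multiply mapped reads had been taken out, and deposited raw counts on Ensembl transcripts. Amplification can distort the coverage along a transcript, and strand was not kept. The members and gene lists were chosen with earlier results of these data known.

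The design assumed a table of genes, whereas the deposited counts are on transcripts. Of 75466 transcripts, 73157 were matched to GENCODE M21 (GRCm38), and 2309 were not (1.60% to 1.78% of counts). The most counted transcript, summed over libraries, stood for each of 22086 genes. Total counts on transcripts were 33423491 to 77030398 per library, and no replicate pair differed by as little as sampling noise (chi-square per degree of freedom 32.5 or more).

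Genotypes were compared in R 4.3.3 with edgeR 4.0.16 (TMM, filterByExpr, quasi-likelihood F test, genotype alone), with p-values adjusted over 13545 tested genes by the Benjamini-Hochberg method. Normalized counts refer to the average effective library size. Standard errors are the log2 fold change over the square root of F. Exact 2-sided permutation tests used log2(CPM + 0.5). Genes named are the 9 members, Gja1, the largest rise and fall of each of the 3 lists of junction and β-catenin partner genes, and the nearest gene to each member. Any other gene, such as Ulk4 and single cell type markers, was named outside this rule, after its values were seen. The alternatives were DESeq2 1.42.0 with and without its prior, its size factors, upper-quartile factors, other filters, transcripts added up or tested singly, the replicate block, a pseudocount of 2, the length of all exons, and leaving out each library. On simulated counts of 13545 genes, of which 200 differed by 3 in log2, edgeR found 86% with 7 false calls. The 200 were drawn only from well counted genes. The largest log2 fold change of a member was smaller than 3 (F11r, 2.06). The 86% is therefore not a rate of detection for the members. Python used numpy 2.4.6, pandas 2.3.3, scipy 1.17.1 and biopython 1.88. The Western-blot, in situ hybridization and vessel data were not analysed here.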

Additional observations from a re-analysis of the deposited data

How the results depend on the processing

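The count of members called was 0 under each alternative of the fit that was run. Of 134 alternative values of single members, 130 kept their direction and stayed short of the threshold, and the lowest adjusted p in any of them was 0.3573 (edgeR, Tjp1). Sizes moved by over 1.5 times with the DESeq2 prior in Ocln (0.98), F11r (1.01) and Cgn (-0.43), and with the replicate block in Ocln (2.95) and Cgn (-3.41), besides Jam3 and Ctnna1, whose values were near 0, and the values without single libraries. Direction turned in 4 of them. Jam3 turned to 0.23 without Cx43KO replicate 2 or 3 and to 0.72 without Cx43FL replicate 2, with a range of -0.85 to 0.72 over the libraries left out, and Ctnna1 turned to -0.095 without Cx43KO replicate 3, with a range of -0.095 to 0.29. The count of genes called over the whole table was 1 in edgeR's test, 0 with at least 10 counts in every library, 0 with transcripts added up, 130 with DESeq2 and its prior, 174 without the prior and 1129 at an unadjusted p-value below 0.05. With each library left out it ran from 0 to 11, the highest without Cx43KO replicate 1. The cause was not tested. With the replicate number as a block 2 genes were called and 0 members. In that edgeR fit the unadjusted p-values of Ocln (0.032), F11r (0.027) and Ctnnd1 (0.036) were below 0.05. Some members also fell below 0.05 unadjusted with no filter or without single libraries. Libraries with the same number did not deviate together (correlations 0.011, -0.0040 and -0.055), so the numbers were not taken to pair the samples. Taking all exons as the length lowered the level of Jam2 in Cx43FL to 21.7, of Ctnnb1 to 76.1 and 96.5 and of Ctnna1 to 28.6 and 30.7 CPM per kb in Cx43FL and Cx43KO. Taking Ulk4 off Ctnnb1 and representing Ocln by a shorter transcript were added after the data were seen. The 95% intervals of Tjp1, Ocln, F11r, Jam2, Jam3, Ctnnd1 and Cgn include 0 and also changes of over 1 on the log2 scale. Cgn had under 3 counts in 2 libraries.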
